A study of Mus musculus with 4 samples.

Results

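The genes described here encode the scaffold of the excitatory postsynaptic density, the protein layer that holds glutamate receptors beneath the synaptic membrane. They were chosen by symbol from a list of 39 names, and all 39 were found among the 32531 gene names in the count files. The data are ribosome-bound RNA from the deep cerebellar nuclei of untreated adult mice that all carry the Slc17a6-EGFP/Rpl10a transgene (line JX883). In this line an EGFP-tagged copy of the ribosomal protein L10a is expressed under the control of Slc17a6, the vesicular glutamate transporter gene of many glutamatergic neurons, and tagged polysomes are pulled down with antibodies against EGFP. The series holds 1 group of 4 such pulldown libraries, each made from 3 pooled mice. Replicate 4 carries the library number 1476, and replicates 1, 2 and 3 carry 1300, 1301 and 1302. No input RNA and no second cell type were analysed here, so a level says how much RNA was recovered with the beads and not how enriched it was.

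As background, the postsynaptic density is built in layers. Membrane-associated guanylate kinases of the Dlg family bind receptors and adhesion proteins through PDZ domains. Dlgap proteins link them to the Shank proteins, and Shank proteins connect to Homer proteins and to the actin cytoskeleton. Around this core lie regulators of small GTPases, the actin-nucleating WAVE complex, and PDZ proteins that move AMPA receptors.

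The carboxyl terminus of Dlgap proteins is known to bind the PDZ domain of Shank proteins. The last 33 coding bases of the longest annotated coding sequence of each Dlgap gene, stop codon included, are shown 5′ to 3′ from GENCODE release M21 transcripts (mm10) because this end carries that binding motif. Capitals mark the final 4 codons before the stop. All 4 genes lie on the plus strand, Dlgap1 on chromosome 17, Dlgap2 on chromosome 8, Dlgap3 on chromosome 4 and Dlgap4 on chromosome 2.
Dlgap1: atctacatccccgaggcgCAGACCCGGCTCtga
Dlgap2: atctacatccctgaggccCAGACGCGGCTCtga
Dlgap3: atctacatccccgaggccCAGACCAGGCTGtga
Dlgap4: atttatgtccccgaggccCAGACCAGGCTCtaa
The capital codons encode the same 4 residues in all 4 genes. They differ from those of Dlgap1 at 1 base in Dlgap2, at 2 bases in Dlgap3 and at 1 base in Dlgap4.

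Counts assigned to genes totalled 10988373 in replicate 4 and from 9621762 to 10436291 in replicates 1 to 3. The ribosomal RNA precursor Rn45s took 4.92% of them in replicate 4 and 4.99, 14.2 and 13.6% in replicates 1, 2 and 3. Slc17a6 itself stood at 2309 CPM (counts scaled to the library total in the usual way) in replicate 4 and at 2237, 2011 and 2014 CPM in replicates 1, 2 and 3. Of the other 4 markers of glutamatergic nuclear neurons, Lhx9 had 127 CPM in replicate 4 and 148, 44.9 and 46.2 CPM in replicates 1, 2 and 3, and Tbr1 had 13.7 CPM in replicate 4 and 1.25, 4.66 and 11.3 CPM in replicates 1, 2 and 3. These markers thus varied more between libraries than Slc17a6 did. The summed level of 6 Purkinje cell markers was 1158 CPM in replicate 4 and 1352, 1634 and 3279 CPM in replicates 1, 2 and 3, and that of 4 markers of inhibitory neurons was 72.3 CPM in replicate 4 and 114, 173 and 369 CPM in replicates 1, 2 and 3. The sum of 5 astrocyte and Bergmann glia markers was 104 CPM in replicate 4 and 126, 138 and 286 CPM in replicates 1, 2 and 3. All 3 sums were highest in replicate 3 and lowest in replicate 4. Single markers could differ: Calb1, Rgs8, Aqp4 and Gfap were not lowest in replicate 4, and Pcp2 was highest in replicate 2. The sum of granule cell markers was 441 CPM in replicate 4 and 435, 534 and 1049.6 CPM in replicates 1, 2 and 3. That of oligodendrocyte markers was 846 CPM in replicate 4 and 365, 627 and 973 CPM in replicates 1, 2 and 3. These sums were also highest in replicate 3, but lowest in replicate 1. The midbrain and thalamus gene Tcf7l2 stood at 2486 CPM in replicate 1 and at no more than 42.0 CPM in any other library. Of the same list of 4 genes, Pou4f1 was also highest in replicate 1 (19.3 CPM). Lef1 and Otx2 were highest in replicate 3, at 12.9 and 5.65 CPM, and had 6.13 and 4.88 CPM in replicate 1.

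Scaffold genes were nearly all present. Of the 39, 36 reached 1 CPM in every library, against 34.5% of all gene names, and 17 had a mean of at least 100 CPM. Together they took from 0.725 to 0.856% of the counts of a library. Levels of different genes are compared below as CPM per kilobase of exon, with the union of all annotated exons as the length. With the longest transcript as length, 14 of the 39 levels were over 1.5 times higher, at most 2.57 times (Pick1), so levels and ranks depend on this choice. Per kilobase of union exon, the 36 genes had a median of 11.9. The 10908 genes with a length that reached 1 CPM in every library had a median of 6.21. The 3 genes that did not reach 1 CPM everywhere were Homer3, Lzts1 and Baiap2l1. In bulk RNA, fewer cells of a type and less RNA per cell cannot be told apart, so a low level may be either.

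**Figure D1:**
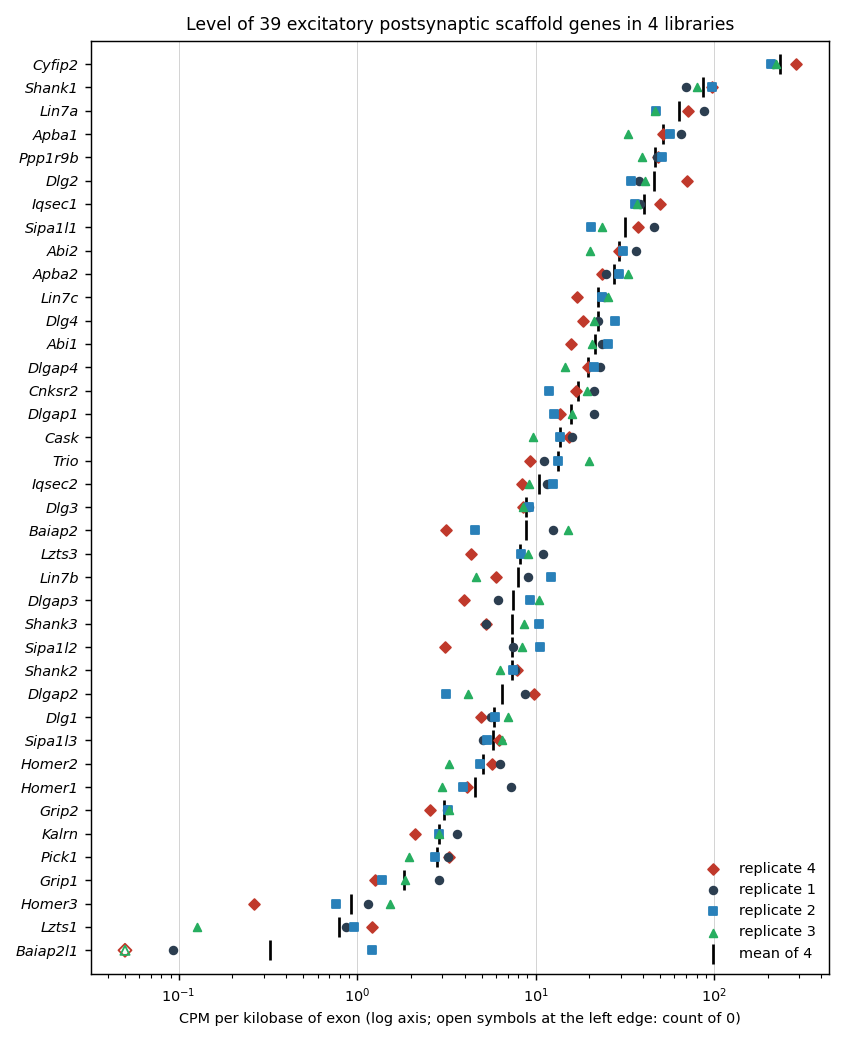
CPM per kilobase of exon (log axis) of each scaffold gene in replicate 4 and in replicates 1 to 3, ordered by the mean of the 4 libraries, which a black bar marks. Cyfip2, with a mean of 233, stands apart at the top, and Homer3, Lzts1 and Baiap2l1 lie below 1. Open symbols at the left edge stand for a count of 0, in replicates 4 and 3 of Baiap2l1.

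The Dlg genes form the layer next to the receptors. Dlg2, which encodes PSD-93, was the highest of the 4 per kilobase at 45.9 ± 16.5 (SD, n = 4), followed by Dlg4, the gene of PSD-95, at 22.5 ± 3.86, Dlg3, the gene of SAP102, at 8.85 ± 0.394, and Dlg1, the gene of SAP97, at 5.88 ± 0.865. Dlg2 had 70.4 CPM per kilobase in replicate 4, and 37.8, 34.5 and 41.1 in replicates 1, 2 and 3. Replicate 4 stood above the other 3, which lay close together. Dlg2 made up 54.1 ± 10.4% of the summed level of the family, and Dlg4 27.8 ± 7.38%. The log2 ratio of Dlg2 over Dlg4 was 0.99 ± 0.68 and ranged from 0.31 in replicate 2 to 1.93 in replicate 4, with Dlg2 higher in 4 of 4 libraries. Dlg3 was the steadiest of all the scaffold genes. It had 49.7 CPM in replicate 4, and 53.5, 53.9 and 49.8 CPM in replicates 1, 2 and 3. Dlg3 exceeded Dlg1 in every library when divided by exon length (log2 ratio of Dlg1 over Dlg3 -0.60 ± 0.22), but that order rests on the length. Without division by length the ratio was 0.27, and with the longest transcript as length it was -0.02.

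With 4 libraries an exact two-sided sign-flip test cannot go below 0.125, so no p-value is given for a ratio between genes. Each is described by its SD and by whether all 4 libraries have the same sign. Of 31 ratios between all members of 13 families, 24 had 1 sign in all 4 libraries. For 23 of these the sign was also the same with the longest transcript as length and with no division by length, the exception being Dlg1 over Dlg3.

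**Figure D2:**
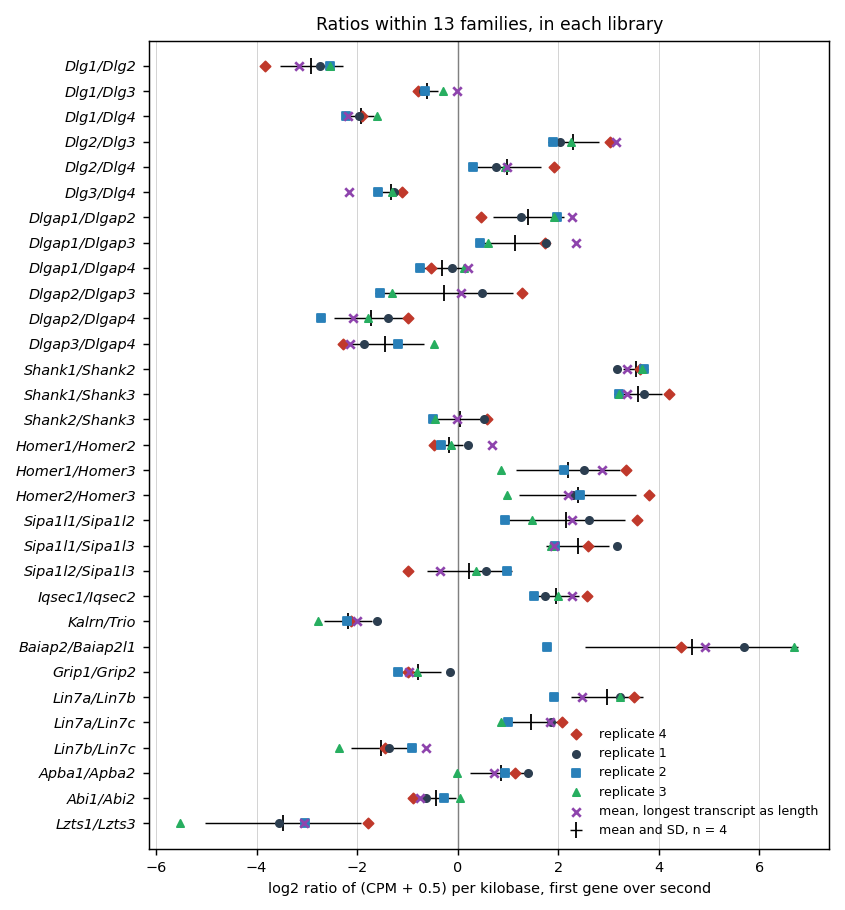
Log2 ratio of (CPM + 0.5) per kilobase for each pair of genes within a family, first gene over second, in replicate 4 and in replicates 1 to 3. Black bars give the mean and SD (n = 4), and crosses the mean with the longest transcript as length. All libraries lie on 1 side of 0 for 24 of the 31 pairs, among them Shank1 over Shank2 and Shank1 over Shank3.

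Dlgap1 and Dlgap4 were the higher members of the Dlgap family. Dlgap4 stood at 19.6 ± 3.59 CPM per kilobase and Dlgap1 at 15.9 ± 3.75. Their order was not settled, since the log2 ratio of Dlgap1 over Dlgap4 was -0.31 ± 0.39 and had both signs. Without division by length this ratio was 0.77 and positive in every library. With the longest transcript as length its mean was 0.20. Dlgap1 exceeded Dlgap2 by 1.41 ± 0.71 and Dlgap3 by 1.14 ± 0.71, in 4 of 4 libraries each. The lower pair differed between libraries. Dlgap2 had 60.4 CPM in replicate 4, and 53.7, 19.4 and 25.6 CPM in replicates 1, 2 and 3. Dlgap3 had 18.02 CPM in replicate 4, and 28.0, 41.9 and 47.0 CPM in replicates 1, 2 and 3. Dlgap2 was thus higher in replicates 4 and 1 and Dlgap3 in replicates 2 and 3, and the log2 ratio of Dlgap2 over Dlgap3 ran from -1.54 in replicate 2 to 1.27 in replicate 4.

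The Shank family was dominated by 1 gene. Shank1 had 1030.2 CPM in replicate 4, and 733, 1029 and 843 CPM in replicates 1, 2 and 3. It made up 85.3 ± 1.90% of the family's summed level per kilobase, and its mean of 86.4 ± 13.95 was second among all the scaffold genes (with the longest transcript as length it came after Dlg2, at 95.7), higher than that of 97.2% of the genes that reached 1 CPM in every library. Shank1 exceeded Shank2 by a log2 ratio of 3.54 ± 0.25 and Shank3 by 3.58 ± 0.48, each in 4 of 4 libraries. Shank2 and Shank3, at 7.34 ± 0.718 and 7.41 ± 2.59 CPM per kilobase, were not separated (log2 ratio 0.04 ± 0.60). Shank2 had 85.1 CPM in replicate 4 and 83.0, 80.1 and 67.8 CPM in replicates 1, 2 and 3. Shank3, the gene deleted in Phelan-McDermid syndrome in humans, had 48.2 CPM in replicate 4 and 48.7, 96.4 and 79.1 CPM in replicates 1, 2 and 3, so that replicates 2 and 3 lay apart from replicates 4 and 1.

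Homer proteins bind Shank proteins, metabotropic glutamate receptors and inositol trisphosphate receptors. Per kilobase of union exon, the Homer genes lay below every Dlg, Dlgap and Shank gene. Homer2 stood at 5.06 ± 1.34 CPM per kilobase, Homer1 at 4.58 ± 1.89 and Homer3 at 0.927 ± 0.542. Homer1 and Homer2 were not separated (log2 ratio -0.18 ± 0.29), although with the longest transcript as length Homer1 was higher in every library (0.69). With that length Homer1 stood at 9.60 CPM per kilobase, above Shank2, Shank3, Dlgap2 and Dlgap3. The counts do not distinguish the short, activity-induced form of Homer1 from the long forms. Homer3, the Homer gene known for its high level in Purkinje cells, had 0.910 CPM in replicate 4 and 3.95, 2.62 and 5.27 CPM in replicates 1, 2 and 3. It was lowest in replicate 4 and highest in replicate 3, the libraries with the lowest and highest sums of Purkinje cell, inhibitory neuron and astrocyte markers; the part of such RNA in these values was not tested. Homer3 also shares 25.4% of its exon bases with Ddx49 on the opposite strand, and its 10 counts in replicate 4 leave it uncertain.

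**Figure D3:**
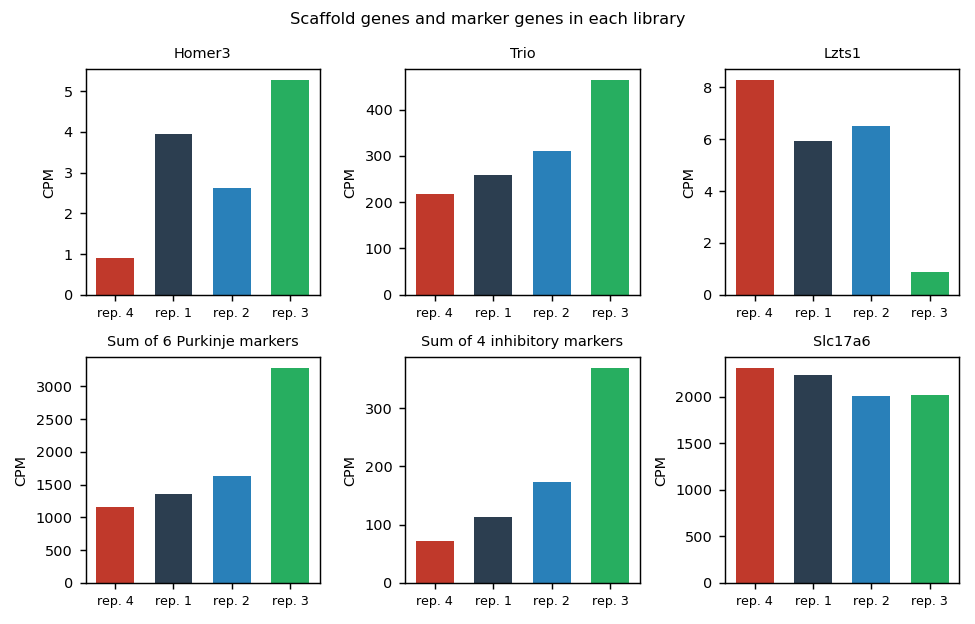
CPM of Homer3, Trio and Lzts1 (top row) and of the summed Purkinje cell markers, the summed inhibitory neuron markers and Slc17a6 (bottom row), in replicate 4 and in replicates 1, 2 and 3. Both marker sums and Trio are lowest in replicate 4 and highest in replicate 3, and Lzts1 is lowest in replicate 3.

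Among the regulators of small GTPases, Iqsec1 and Sipa1l1 led. Iqsec1, an activator of Arf GTPases, stood at 40.5 ± 6.52 CPM per kilobase, and exceeded its relative Iqsec2 (10.4 ± 1.93) by a log2 ratio of 1.96 ± 0.46 in 4 of 4 libraries. Iqsec1 had 582 CPM in replicate 4, and 447, 418 and 431 CPM in replicates 1, 2 and 3. Iqsec3, a relative known from inhibitory synapses, stood at 31.9 ± 1.09. Sipa1l1, a Rap GTPase-activating protein of dendritic spines, stood at 31.9 ± 11.9 and exceeded Sipa1l2 by 2.15 ± 1.17 and Sipa1l3 by 2.39 ± 0.62, again in 4 of 4 libraries. Sipa1l1 had 479.8 CPM in replicate 4, and 588, 263 and 301 CPM in replicates 1, 2 and 3. Sipa1l2 and Sipa1l3, at 7.40 ± 3.16 and 5.79 ± 0.673 per kilobase, had no settled order (0.23 ± 0.85). Cnksr2, a scaffold of Ras signalling, stood at 17.4 ± 4.14.

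Trio exceeded Kalrn, which like it encodes a large guanine nucleotide exchange factor. The log2 ratio of Kalrn over Trio was -2.18 ± 0.48, with Trio higher in 4 of 4 libraries. Trio had 218 CPM in replicate 4, and 259.5, 311 and 464 CPM in replicates 1, 2 and 3. This ascending order is that of the summed Purkinje cell, inhibitory neuron and astrocyte markers. Not every marker in the sums had it. Among Purkinje cell markers Pcp2, Calb1 and Rgs8 did not, and among astrocyte markers Aqp4, Gfap, Gjb6 and Gdf10 did not. Of the 39 scaffold genes 5 had this order (Dlg1, Dlgap3, Trio, Grip2 and Apba2), against 6.47% of the 15083 genes tested for a difference between libraries. Kalrn was also lowest in replicate 4 but highest in replicate 1, with 50.9 CPM in replicate 4 and 87.4, 68.9 and 68.9 CPM in replicates 1, 2 and 3. Of the 6 Purkinje cell markers 5 reached 1 CPM in every library, and the exception, Pcp2, had 0.910 CPM in replicate 4 and 4.37, 13.002 and 9.68 CPM in replicates 1, 2 and 3. Of the 4 inhibitory markers 3 did, and the exception, the glycine transporter gene Slc6a5, had no count in replicate 4. The part of other cells in the levels of these 5 genes was not tested.

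The actin regulators held the most abundant scaffold gene. Cyfip2, a subunit of the WAVE complex, had 2044 CPM in replicate 4, and 1519.7, 1491 and 1575 CPM in replicates 1, 2 and 3. Its mean of 233 ± 36.6 CPM per kilobase was higher than that of 99.3% of the genes that reached 1 CPM in every library. Its paralog Cyfip1 stood at 1.95 ± 0.532, and the log2 ratio of Cyfip2 over Cyfip1 was 6.90 ± 0.63 (4 of 4 libraries), or 6.11 with the longest transcript as length. Other subunits of the same complex were also measured. Nckap1 stood at 174 ± 16.9, Brk1 at 44.5 ± 26.5, Wasf3 at 40.7 ± 3.24 and Wasf1 at 34.1 ± 12.8 CPM per kilobase, whereas Wasf2 stood at 5.92 ± 4.45 and Abi3 had no count in any library. Abi2 and Abi1, the Abl-interactor subunits, stood at 29.3 ± 6.87 and 21.4 ± 4.21. Abi2 had 252 CPM in replicate 4, and 314, 263 and 172 CPM in replicates 1, 2 and 3, highest in replicate 1 and lowest in replicate 3. The log2 ratio of Abi1 over Abi2 was -0.44 ± 0.41, negative in replicates 4, 1 and 2 and 0.05 in replicate 3. It was negative in every library without division by length (-1.52) and with the longest transcript as length (-0.76).

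Ppp1r9b, which encodes spinophilin, a spine protein that targets protein phosphatase 1, stood at 46.8 ± 4.99 CPM per kilobase and was steady between libraries. It had 246 CPM in replicate 4, and 243, 261 and 202 CPM in replicates 1, 2 and 3. Per kilobase of union exon, Ppp1r9b exceeded its relative Ppp1r9a (23.3 ± 4.85) by a log2 ratio of 1.02 ± 0.17 in 4 of 4 libraries. With the longest transcript as length the ratio was 0.59. That order rests on the length. Before division by length Ppp1r9a was higher in every library, with 308 CPM in replicate 4, and 352, 430 and 265 CPM in replicates 1, 2 and 3. Baiap2, the gene of IRSp53, which couples Rac and Cdc42 to actin, varied widely. It had 15.7 CPM in replicate 4, and 62.4, 22.8 and 75.9 CPM in replicates 1, 2 and 3, low in replicates 4 and 2 and high in replicates 1 and 3. Its SD on the log2 scale, 1.09, exceeded that of 94.1% of the genes that reached 1 CPM in every library. Baiap2l1, a relative best known from epithelia, had counts of 0 in replicate 4 and 3, 42 and 0 in replicates 1, 2 and 3. A count of 0 allows up to 0.273 CPM in replicate 4 and 0.287 CPM in replicate 3 (3 counts, counting error only).

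The PDZ proteins that bind AMPA receptors were low. Grip2 stood at 3.07 ± 0.348, Pick1 at 2.79 ± 0.611 and Grip1 at 1.84 ± 0.735 CPM per kilobase, and Grip2 exceeded Grip1 (log2 ratio of Grip1 over Grip2 -0.78 ± 0.45) in 4 of 4 libraries. Grip1 had 10.1 CPM in replicate 4, and 23.2, 11.2 and 14.9 CPM in replicates 1, 2 and 3. Pick1 had 21.5 CPM in replicate 4, and 21.2, 17.95 and 12.8 CPM in replicates 1, 2 and 3. Pick1 shares 18.6% of its exon bases with Gm49486 on the same strand in GENCODE M21. Gm49486 is not among the gene names of the count files, so whether this overlap touched the counting is unknown. The AMPA and NMDA receptor genes and the group I metabotropic receptor genes beside these scaffolds ranged from 0.924 ± 0.428 (Grin2a) to 27.8 ± 4.02 (Gria4) CPM per kilobase. Their median was 13.3 over 11 genes, and all 11 reached 1 CPM in every library. Which receptor gene was highest rests on the length. Gria3 stood at 27.1 ± 10.7 per kilobase. Before division by length Gria2 and Gria3, with means of 303 and 267 CPM, exceeded Gria4 at 175 CPM. Per kilobase of union exon, Shank1, Dlg2 and Cyfip2 had higher means than any of the 11. So did Lin7a, Apba1, Ppp1r9b, Iqsec1, Sipa1l1 and Abi2.

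Cask, Lin7 and Apba proteins form a complex that is found on both sides of the synapse and in the transport of NMDA receptors. Lin7a stood at 63.5 ± 20.1, Apba1 at 51.5 ± 13.7, Apba2 at 27.6 ± 4.39, Lin7c at 22.5 ± 3.74, Cask at 13.7 ± 2.86 and Lin7b at 7.98 ± 3.38 CPM per kilobase. Lin7a was the highest Lin7 gene in 4 of 4 libraries, above Lin7c by a log2 ratio of 1.45 ± 0.60 and above Lin7b by 2.97 ± 0.71. Lin7a had 238 CPM in replicate 4, and 291, 157 and 154 CPM in replicates 1, 2 and 3. Apba1, which encodes the neuronal adaptor Mint1, had 357 CPM in replicate 4, and 449, 388 and 226 CPM in replicates 1, 2 and 3. Apba2, the gene of Mint2, had 89.9 CPM in replicate 4, and 94.4, 112 and 126 CPM in replicates 1, 2 and 3, so that replicate 3 held the least Apba1 and the most Apba2. Apba1 exceeded Apba2 in replicates 4, 1 and 2 but not in replicate 3, where the log2 ratio was -0.01. Lin7b shares 20.4% of its exon bases with Gm45619 on the opposite strand in GENCODE M21, and Gm45619 too is not among the names of the count files.

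Lzts3 and Lzts1 encode coiled-coil proteins of the postsynaptic density, a family known to bind Shank proteins and Rap regulators of the Sipa1l family. Lzts3 stood at 8.18 ± 2.80 and Lzts1 at 0.793 ± 0.468 CPM per kilobase, a log2 ratio of Lzts1 over Lzts3 of -3.48 ± 1.55 with the same sign in 4 of 4 libraries. Without replicate 3 the log2 ratio was -2.79. Lzts1 had 8.28 CPM in replicate 4, and 5.92, 6.501 and 0.862 CPM in replicates 1, 2 and 3, the last of these from 9 counts. Lzts3 had 18.5 CPM in replicate 4, and 46.8, 35.3 and 38.6 CPM in replicates 1, 2 and 3, so replicate 4 held the least Lzts3 and the most Lzts1.

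A list of 49 other postsynaptic density genes gives the setting. Of these 48 were found, and 45 reached 1 CPM in every library. The median over the list was 8.98 CPM per kilobase, and over the 39 scaffold genes it was 8.85. The highest were Pak1, a kinase downstream of Rac and Cdc42, at 291 ± 86.8, Nckap1 as above, the delta-catenin gene Ctnnd2 at 57.2 ± 25.003, Camk2a at 52.05 ± 36.1 and Camk2b at 47.2 ± 8.34. Camk2a, the alpha subunit of a kinase that is abundant at forebrain synapses, had 534 CPM in replicate 4, and 688, 229 and 103 CPM in replicates 1, 2 and 3.

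The spread between libraries was then compared with that of other genes. The SD of log2(CPM + 0.5) over the 4 libraries had a median of 0.33 for the 36 scaffold genes at 1 CPM or more in every library, and of 0.48 for the 11213 genes at that level. The smallest were 0.06 for Dlg3, 0.15 for Shank2 and 0.16 for Ppp1r9b. The largest among the 36 were 1.09 for Baiap2, 0.79 for Dlgap2 and 0.77 for Sipa1l2. The background genes were not matched for level, and the 36 had a higher median per kilobase (11.9, against 6.21). A small spread was not particular to the scaffold genes. The median SD was 0.35 over the 48 other postsynaptic density genes found and 0.36 over all 39 scaffold genes. Replicates 2 and 3, in which Rn45s took more of the counts, were both above replicates 4 and 1 for 7 scaffold genes (Dlg1, Dlgap3, Shank3, Sipa1l2, Trio, Grip2 and Apba2) and both below them for 9 (among them Sipa1l1, Lin7a, Homer1, Homer2, Cask and Dlgap2). Of all 15083 genes tested below, 15.5% lay above and 18.2% below in this way, so 7 and 9 of 39 are near the background. The part of Rn45s in these values was not tested.

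Replicate 4 was set against replicates 1 to 3 because its library number lies apart from the other 3, and the labels do not say what the numbers stand for. With 1 library on 1 side, the test assumes that replicate 4 varies like the other 3, which these data cannot check. With edgeR's quasi-likelihood test, 0 of the 39 scaffold genes passed an adjusted p of 0.05, against 0.0464% of 15083 genes tested (7 genes, 6 higher and 1 lower). At an unadjusted p under 0.05 there were 4 scaffold genes and 2222 genes in all. Without replicate 1 the genes called were 95 higher and 30 lower, without replicate 2 they were 47 and 27, without replicate 3 they were 56 and 26, and none was a scaffold gene. The log2 fold changes of the 39 were positive for 19 and negative for 20, with a median of -0.02. Over all genes tested the median was -0.16. The 20 include Baiap2l1, which had no count in replicates 4 and 3. Replicate 4 stood above every other library for 8 scaffold genes, against 23.9% of all genes tested, and below every other library for 17, against 36.9%.

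Dlg2 had the smallest p-value of the scaffold genes and was singled out after its values were seen. Its 1146 CPM in replicate 4 stood above 615, 561 and 669 CPM in replicates 1, 2 and 3, a log2 fold change of 1.05 ± 0.26 (SE, edgeR adjusted p = 0.169). DESeq2 called it higher in replicate 4 (log2 fold change 1.07, adjusted p = 0.0456), as it did 1.17% of the genes for which it gave an adjusted p, and so did edgeR with no filter on low counts (adjusted p = 0.0237, with 1.29% of genes called higher). With the trend of each library on gene length taken out, the log2 fold change was 0.77 (edgeR adjusted p = 0.223). Across the 14094 tested genes with a length, the fold change had a Pearson correlation of 0.19 with log2 exon length, and across the 39 scaffold genes, which are longer (median 8451 bases, against 4934.5 for detected genes), it was 0.33. The value of 0.33 includes Baiap2l1, a gene of 3366 exon bases whose fitted change, from counts of 0 to 42, was the largest. It was not computed without this gene. Genes of 1 library share its depth and handling, so these correlations are descriptions.

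The largest fitted changes among the scaffold genes did not pass the threshold either. Sipa1l2 had 29.8 CPM in replicate 4, and 71.7, 102 and 80.9 CPM in replicates 1, 2 and 3. Its log2 fold change was -1.36 ± 0.43 (SE, edgeR). Replicate 4 lay below every other library, as it did for 36.9% of all genes tested. Baiap2 had a log2 fold change of -1.61 ± 0.66 (edgeR adjusted p = 0.299), Homer3 of -1.95 ± 1.39 (adjusted p = 0.526) and Lzts1 of 1.08 ± 1.06 (adjusted p = 0.636). For Baiap2l1 both groups hold libraries with a count of 0, and no fold change is given. Cyfip2, higher in replicate 4 than in any other library, had a log2 fold change of 0.57 ± 0.25 (edgeR adjusted p = 0.318). None of the 48 other postsynaptic density genes passed (46 were tested, 8 at an unadjusted p under 0.05).

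**Figure D4:**
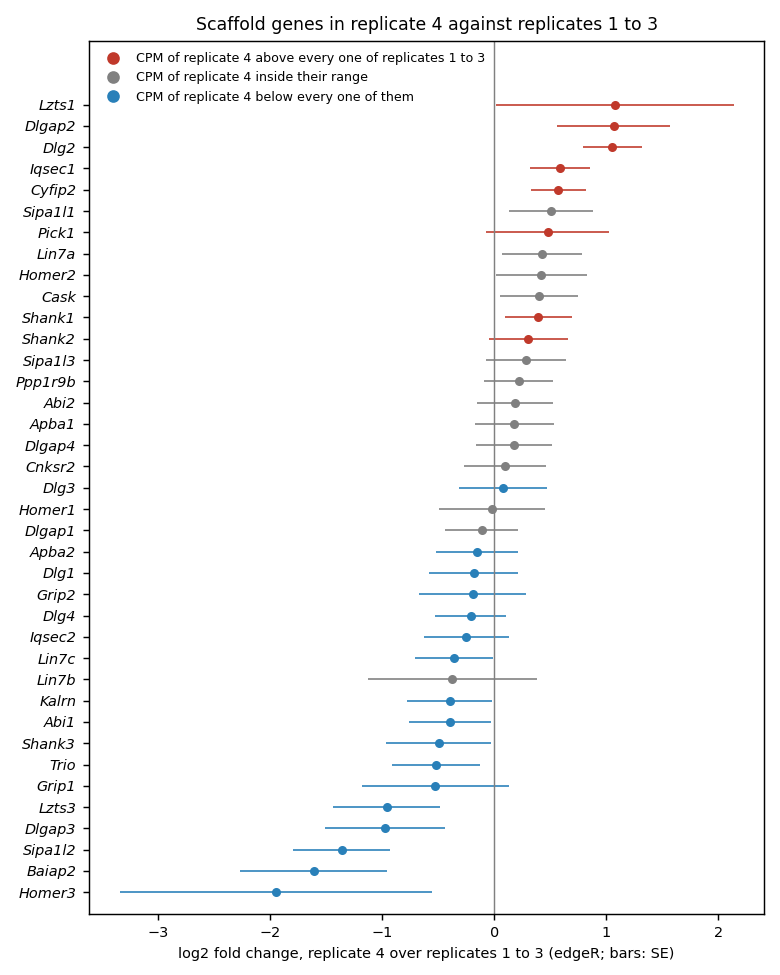
Log2 fold change of 38 scaffold genes in replicate 4 over replicates 1 to 3 from edgeR, with its SE, coloured by where the CPM of replicate 4 lies relative to the other 3 libraries. Baiap2l1 is not drawn, because 2 of the 4 libraries had no count. Dlg2 and Sipa1l2 lie more than 3 SE from 0, and none passes an adjusted p of 0.05.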

How the data were processed

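Whole-number counts per gene name for 4 libraries were deposited by the authors. The submitters' processing notes list STAR 2.0.0e, HTSeq and mm10. Which annotation and strand setting were used for counting is not given in the sources used here. Reads of overlapping genes on opposite strands may therefore not be separated. The 5 summary rows of each file were left out of library totals; reads with no feature made up 14.1 to 21.1% of all counted reads. Each library is labelled as 3 mice, and the labels do not say whether any mice are shared between libraries. The p-values therefore measure only a spread between libraries, which may be technical. This spread is that of the 3 libraries other than replicate 4. Replicate 4 stands alone on its side of the comparison and adds nothing to it.

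CPM was computed over all 32531 gene names and divided by union exon length from GENCODE M21 (GRCm38, the build of mm10), which gave a length to all 39 scaffold genes and to 73.5% of names. Replicate 4 was compared with replicates 1 to 3 by edgeR 4.0.16 in R 4.3.3 (TMM, filterByExpr, robust glmQLFit, glmQLFTest, Benjamini-Hochberg adjustment over all genes tested, threshold 0.05, two-sided). The SE is the fold change divided by the root of its F statistic, and 1 library is assumed to vary like the other 3. Data were also simulated for this comparison (14421 genes). Of genes changed by 2 on the log2 scale 57% were recovered, and of those changed by 3, 79%. The changed genes had a mean of at least 10 CPM, and genes of like level were given the same spread. Recovery of changes below 2 was not simulated. Alternatives were DESeq2 1.42.0, RLE scaling, no filter, a length trend, Rn45s left out, the longest transcript as length, other pseudocounts and leaving out libraries. Ratios used a pseudocount of 0.5 CPM. All scaffold genes are named. Extra values per library were given for the 10 highest and 5 lowest per kilobase and for the 5 largest fold changes; further values were picked with the results in view. The members and lists were chosen with earlier results of these data known. Values that lie apart were marked by Dixon's ratio. Counting floors cover counting error only, since the labels mention no molecular identifiers.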

Additional observations from a re-analysis of the deposited data

Results flagged for a closer look

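Of 70 values examined in the 4 libraries (39 levels in CPM and 31 family ratios), 5 had 1 library far from the other 3 by Dixon's ratio, the gap to the nearest library over the whole range, past the 95% critical value. Chance gives about 1 in 20. Cyfip2 was high in replicate 4 (ratio 0.848), at 2044 CPM against 1491 to 1575 CPM in replicates 1 to 3. Grip2 was low in replicate 4 (0.881), at 23.8 CPM against 29.9 to 30.8 CPM in replicates 1 to 3. Both levels are scaled to library totals. The TMM factors, not used here, were 0.922 for replicate 4 and 1.11, 0.996 and 0.981 for replicates 1, 2 and 3. With TMM scaling the log2 fold change of Grip2 in replicate 4 was -0.19 ± 0.48 (SE, edgeR). The flags on Cyfip2 and Grip2 can therefore depend on the scaling. Baiap2l1 was high in replicate 2 (0.923), from 42 counts against 0 to 3 counts in the other libraries. The log2 ratio of Dlg1 over Dlg2 was low in replicate 4 (0.848), at -3.83 against -2.73 to -2.53 in replicates 1 to 3. The log2 ratio of Shank1 over Shank2 was low in replicate 1 (0.845), at 3.17 against 3.62 to 3.71 in the other libraries.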

How the results depend on the processing

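The number of scaffold genes at 1 CPM in every library stayed at 36 or 37 under every alternative. The number of family ratios with 1 sign stayed between 24 and 27. Leaving out a library can only keep or raise either number, and the choice of length does not enter the first. The ratio Dlg1 over Dlg3 turned from -0.60 to 0.27 when CPM was not divided by length. With the longest transcript as length, 14 of 39 levels were over 1.5 times higher; the levels were 95.7 for Dlg2, 47.1 for Dlg4, 39.6 for Dlgap1, 27.2 for Trio, 12.4 for Sipa1l3 and 7.18 for Pick1, and Shank1 ranked below Dlg2. The count of genes called in replicate 4 against replicates 1 to 3 depended on the method. DESeq2 called 155 higher and 272 lower, with 1 scaffold gene (Dlg2), and edgeR without a filter on low counts called 241 and 175, with the same 1 scaffold gene. With the length trend taken out, which tests only genes with a length, 3 were higher and 0 lower. Leaving out 1 of replicates 1 to 3 gave 47 to 95 higher and 26 to 30 lower; the cause was not tested. The median SD of all 39 scaffold genes was 0.36, and 0.29 to 0.40 with 1 library left out, lowest without replicate 3. Genes under 10 counts in a library, such as Lzts1 in replicate 3, are limited by depth. No paired analysis was possible because there is 1 group.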
